A study of Mus musculus with 7 samples.

Results

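The genes described here are 10 mouse genes for enzymes that modify tubulin: Agtpbp1, Agbl4, Agbl5, Ttll1, Ttll7, Ttl, Vash1, Vash2, Atat1 and Hdac6. The group was selected on the transcript values themselves, because Agtpbp1 differed strongly between the 2 groups of samples, and the other 9 were added as enzymes of the same kind. All 10 symbols were found among the 54309 genes of the table, each on 1 row. RNA was sequenced from lumbar dorsal root ganglia (L4-6), which house the somata of sensory neurons, in 7 samples of male C57bl/6 mice aged 6 to 8 weeks. All of them had a sciatic nerve injury, and no uninjured sample was analysed here. Injury was at Zeitgeber time (ZT, hours from lights on) 20 in 4 samples and at ZT8 in 3, and the ganglia were taken 72 h later, so the hour of dissection followed the hour of injury. The cells were dissociated with enzymes and enriched for neurons on an albumin gradient before RNA was extracted. The labels do not say whether each sample is a separate animal or a pool, so p-values measure only the spread between these samples, which may be technical.

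Microtubules are polymers of alpha- and beta-tubulin, and enzymes mark them after assembly. Ligases of the TTLL family add chains of glutamate to the tubulin tails, and cytosolic carboxypeptidases, among them the products of Agtpbp1, Agbl4 and Agbl5, shorten or remove those chains. The last residue of most alpha-tubulins, a tyrosine, is removed by the vasohibins Vash1 and Vash2 and put back by the ligase Ttl, while Atat1 acetylates a lysine inside the microtubule and Hdac6 removes that mark. In axons these marks change how motors, severing enzymes and other proteins bind the microtubule, and loss of Agtpbp1 underlies the neuron loss of the Purkinje cell degeneration mouse.

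Values are TPM, the share of a gene among all transcripts after scaling by transcript length, so levels of different genes can be set side by side. Several libraries stood apart. In ZT20 replicates 3 and 4, the Y-linked genes Ddx3y, Eif2s3y and Uty were listed at 0, against their male label, and Xist was at 2.21 and 2.30 TPM. ZT20 replicate 2 held both Ddx3y (11.7 TPM) and Xist (1.08 TPM). In ZT20 replicate 1 and in the ZT8 samples, Xist was at 0 to 0.00467 TPM. ZT8 replicate 2 had 18297 genes above 0 TPM, against 22541 to 25238 in the other 6 samples. Library names were numbers at ZT20 and letters at ZT8, and whatever these schemes stand for cannot be told apart from the group.

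At ZT20 the members fell into levels that were far apart. Agtpbp1 had the highest mean, followed by Ttll1, Ttl and Ttll7, all between 115 and 188 TPM. Hdac6, Atat1 and Vash2 had means of 11.4 to 16.7 TPM, Agbl4 of 3.40 TPM, and Vash1 and Agbl5 of 1.503 and 1.02 TPM. Agtpbp1 was the most abundant of the 10 in 4 of 4 ZT20 samples and Ttll1 came next in each. In 3 of 3 ZT8 samples the order was Ttll1, Ttl, Agtpbp1 and Ttll7. Within ZT20 the range of Ttl (95.2 to 150.4 TPM) overlapped those of Ttll1 (141 to 158 TPM) and Ttll7 (103.6 to 120.3 TPM), as did those of Hdac6 and Atat1 and those of Vash1 and Agbl5. Within ZT8 the ranges of Ttll1 and Ttl overlapped, as did those of Atat1, Hdac6 and Vash2 and those of Agbl5 and Vash1.

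**Figure D1:**
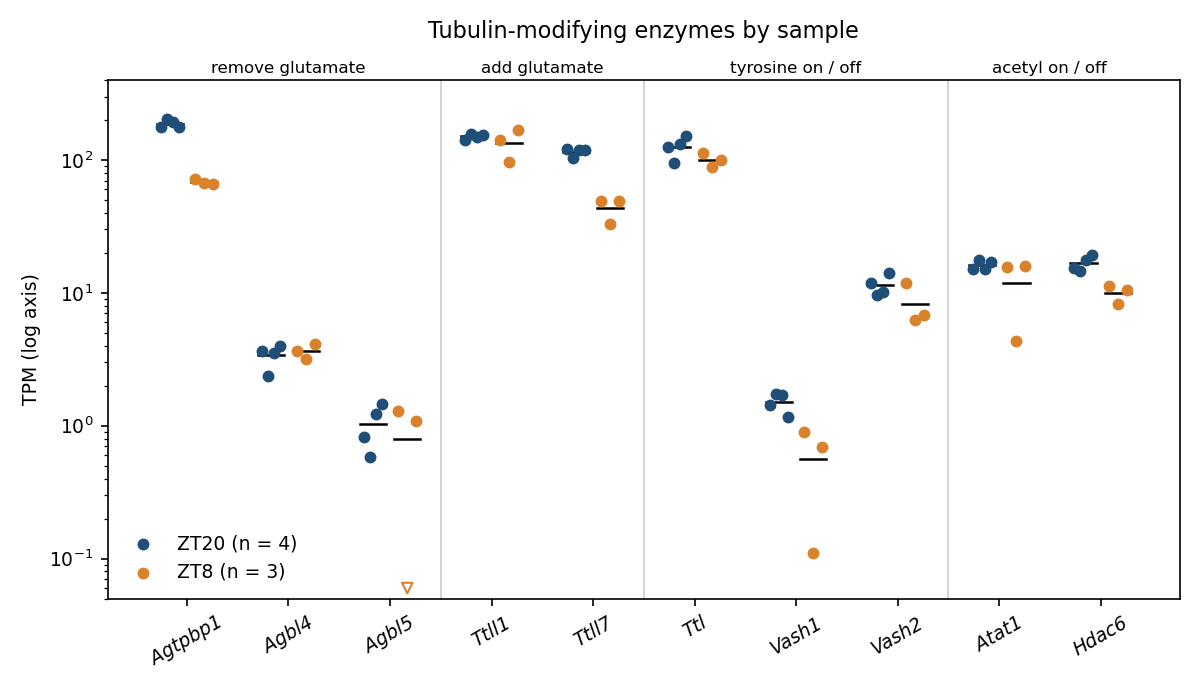
TPM of the 10 members in each sample on a log axis, ordered by what the enzyme does to tubulin; points are samples, black lines are group means, and the open triangle marks a value of 0, which has no place on a log axis. Agtpbp1, Ttll7, Hdac6 and Vash1 sit higher in every ZT20 sample than in any ZT8 sample, while the other members overlap.

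Agtpbp1 (ENSMUSG00000021557), a deglutamylase that trims glutamate chains and can remove the glutamate next to the C terminus, read 176, 203, 194 and 177 TPM across the ZT20 replicates in number order. The ZT8 replicates read 72.4, 66.6 and 66.2 TPM. The groups were far apart, with every ZT20 sample above every ZT8 sample. The means were 188 ± 13.1 TPM (SD, n = 4) for ZT20 against 68.4 ± 3.43 TPM (SD, n = 3) for ZT8, a ratio of 2.74. On the log2(TPM + 1) scale, where differences are ZT20 minus ZT8, it was 1.44 with a standard error of 0.11. This contrast is the one the gene was chosen by, so the values are a description and no test is given. Of 14800 tested genes, those with a mean of at least 1 TPM, 350 (2.36%) had a larger positive difference. Leaving out each sample in turn gave 1.40 to 1.48, and a correction for transcript length and GC content gave 0.81. With ZT20 replicates 3 and 4 left out the difference was 1.46, and with ZT20 replicate 2 left out as well it was 1.35. GENCODE M21 lists 24 Agtpbp1 transcripts of 278 to 8174 nt and a gene on the opposite strand, A930015P04Rik, that overlaps it. How reads were assigned between the transcripts and the strands is not given in the sources used here, so a share of reads from the overlapping gene was not tested.

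Ttll7 (ENSMUSG00000036745), a ligase of nervous tissue that adds glutamate chains mainly to beta-tubulin, had nearly the same difference. It read 120.3, 103.6, 119 and 119 TPM across the ZT20 replicates in number order, and 49.1, 33.1 and 48.8 TPM across the ZT8 replicates. The groups did not overlap. The means were 115 ± 7.91 TPM (SD, n = 4) for ZT20 against 43.7 ± 9.13 TPM (SD, n = 3) for ZT8, a ratio of 2.64, with a log2 difference of 1.40, a standard error of 0.16 and a 95% interval of 1.03 to 1.77. Ttll7 was higher at ZT20 with a limma adjusted p of 0.00310 over the 14800 genes. It passed under the other scalings and without any single sample, with log2 differences of 1.22 to 1.49 when samples were left out. The correction for transcript length and GC content moved it most among the scalings, to 0.83 (limma adjusted p = 0.0241). With ZT20 replicates 3 and 4 left out the difference was 1.36 and the limma adjusted p 0.116. That fit called 0 of the 14800 genes by limma, with 2425 at an unadjusted p under 0.05. With only ZT20 replicate 1 against ZT8 the difference was 1.46 (limma adjusted p = 0.569, and 0 genes called, with 1133 at an unadjusted p under 0.05). That fit assumes that the lone ZT20 sample varies like ZT8.

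Because Agtpbp1 and Ttll7 lay so far from their ZT8 levels, the sequence upstream of their starts is shown, taken from RefSeq on build GRCm38.p6. RefSeq windows were found for 9 of the 10 members, 16 windows in all, some of which overlap. Each is the 250 bases before an annotated start. For Agtpbp1 the most upstream of its 3 windows is given, at chr13:59557348-59557597 on the minus strand. For Ttll7 the window lies at chr3:146852117-146852366 on the plus strand. Both are printed 5′ to 3′ with GC boxes (GGGCGG on either strand) in capitals, of which Ttll7 has none.
Agtpbp1: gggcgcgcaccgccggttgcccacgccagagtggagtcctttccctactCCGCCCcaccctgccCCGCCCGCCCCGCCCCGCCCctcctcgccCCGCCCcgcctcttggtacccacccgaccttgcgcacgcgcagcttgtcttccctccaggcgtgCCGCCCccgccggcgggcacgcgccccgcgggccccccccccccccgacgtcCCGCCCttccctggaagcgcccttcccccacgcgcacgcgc
Ttll7: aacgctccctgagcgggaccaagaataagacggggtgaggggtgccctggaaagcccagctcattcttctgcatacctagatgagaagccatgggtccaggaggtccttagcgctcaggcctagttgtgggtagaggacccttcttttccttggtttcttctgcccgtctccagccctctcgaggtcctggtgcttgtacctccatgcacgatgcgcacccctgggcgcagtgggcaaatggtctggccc

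The Agtpbp1 window was 80.0% G or C and held 8 GC boxes. GC boxes were in 12 of the 16 member windows. Over all 32851 RefSeq windows of this length the median was 52.4% G or C, and 32.7% held a GC box. The Ttll7 window was 59.2% G or C. Sequences bound by clock and injury factors were searched on both strands in the 16 member windows. The E-box CACGTG was in 0 of 16 windows, against 6.02% of all windows. The D-box TTANGTAA was in 0 (2.06% of all windows), the core TAGGTCA of the RORE in 0 (2.23%) and the cyclic AMP response element TGACGTCA in 0 (1.55%). The AP-1 site TGANTCA was in 1, a Vash2 window (6.75% of all windows). A match is only a match of letters, and its absence says only that these letters are not in these windows.

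Ratios taken within a sample do not change when a sample is multiplied by a factor, but a correction for transcript length changes them. The log2 ratio of Ttll7 to Agtpbp1 was −0.55, −0.97, −0.70 and −0.58 across the ZT20 replicates and −0.56, −1.01 and −0.44 across those of ZT8. The groups overlapped, with means of −0.70 and −0.67. Ttll1, the catalytic subunit of the other glutamylating enzyme in the group, stood apart from both. Its log2 ratio to Agtpbp1 was −0.38 to −0.20 at ZT20 and 0.54 to 1.336 at ZT8, so Ttll1 was below Agtpbp1 in 4 of 4 ZT20 samples and above it in 3 of 3 ZT8 samples. The log2 ratio of Ttll7 to Ttll1 was −0.61 to −0.23 at ZT20 and −1.78 to −1.53 at ZT8, and these ranges did not overlap either. The 2 ligases together exceeded the 3 carboxypeptidases of the group in all 7 samples, with a log2 ratio of their summed TPM of 0.35 to 0.58 at ZT20 and 0.90 to 1.597 at ZT8. With length and GC content corrected, the log2 differences of Ttll1, Agtpbp1 and Ttll7 were 0.13, 0.81 and 0.83, closer together than the 0.19, 1.44 and 1.40 as deposited. The ratios between single genes were picked after their values were seen, and no ratio was tested.

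**Figure D2:**
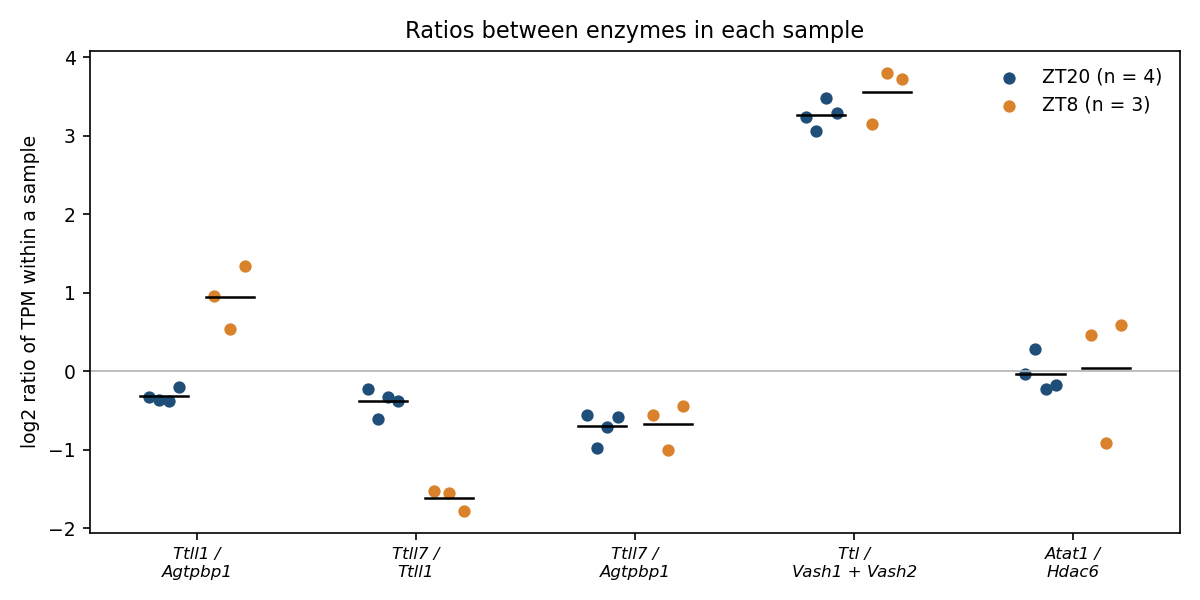
Log2 ratios of TPM between enzymes within each sample; points are samples and black lines are group means. The groups are apart for Ttll1 over Agtpbp1 and for Ttll7 over Ttll1, and they overlap for Ttll7 over Agtpbp1, for Ttl over the vasohibins and for Atat1 over Hdac6.

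Ttll1 itself (ENSMUSG00000022442) read 141, 158, 149 and 154 TPM across the ZT20 replicates in number order, and 141, 96.9 and 167 TPM across the ZT8 replicates. ZT8 replicate 3 was the highest of the 7 samples and ZT8 replicate 2 the lowest. The log2 difference was 0.19 with a 95% interval of −0.22 to 0.59 (limma adjusted p = 0.478). Its sign turned under median-ratio scaling (−0.043) and without ZT8 replicate 2 (−0.032). The partners of Ttll1 in the polyglutamylase complex, Tpgs1, Tpgs2, Lrrc49 and Nicn1, had mean levels of 263, 44.9, 190 and 164 TPM at ZT20 and 278, 38.9, 155 and 189 TPM at ZT8. Their limma adjusted p-values were 0.659, 0.310, 0.216 and 0.251, and their ranges overlapped between the groups.

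The 2 other carboxypeptidases were present at much lower levels. Agbl4 (ENSMUSG00000061298), a deglutamylase like Agtpbp1, read 3.68, 2.37, 3.54 and 4.01 TPM across the ZT20 replicates in number order, and 3.66, 3.19 and 4.10 TPM across the ZT8 replicates. The ranges overlapped, with a log2 difference of −0.091 and a 95% interval of −0.62 to 0.43 (limma adjusted p = 0.802). Without ZT20 replicate 2 its sign turned, to 0.031. Agbl5 (ENSMUSG00000029165), which removes the glutamate at the branch point of a chain, had a mean of 0.925 TPM over all samples, under the filter, and was not tested. Its ZT20 replicates read 0.827, 0.579, 1.23 and 1.46 TPM and its ZT8 replicates 1.29, 0 and 1.08 TPM, with overlapping ranges. Agtpbp1 made up 97.0% to 98.6% of the summed TPM of the 3 carboxypeptidases at ZT20 and 92.7% to 95.4% at ZT8. In GENCODE M21 Agbl4 overlaps 6 other genes and Agbl5 overlaps 2, so their values may include reads of those neighbours.

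None of the enzymes of the tyrosination cycle, Ttl, Vash1 and Vash2, passed the test. Ttl (ENSMUSG00000027394), the ligase that restores the terminal tyrosine, read 125, 95.2, 132 and 150.4 TPM across the ZT20 replicates in number order, and 112, 88.9 and 99.3 TPM across the ZT8 replicates. ZT20 replicate 2 lay within the ZT8 range. The log2 difference was 0.31 with a 95% interval of −0.074 to 0.69 (limma adjusted p = 0.225), and a correction for transcript length and GC content turned its sign (−0.15).

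Vash2 (ENSMUSG00000037568), a tubulin carboxypeptidase that removes the tyrosine, read 11.8, 9.68, 10.1 and 14.2 TPM across the ZT20 replicates in number order, and 11.8, 6.26 and 6.81 TPM across the ZT8 replicates. ZT8 replicate 1 lay inside the ZT20 range, and the log2 difference of 0.45 (95% interval −0.11 to 1.02) did not pass (limma adjusted p = 0.228). It was 0.71 without ZT8 replicate 1, 0.30 without ZT8 replicate 2 and 0.077 with length and GC content corrected, and passed in none of these fits. Vash1 (ENSMUSG00000021256), its close relative, read 1.44, 1.72, 1.70 and 1.16 TPM across the ZT20 replicates in number order, and 0.894, 0.1097 and 0.695 TPM across the ZT8 replicates. These ranges did not overlap, but the log2 difference of 0.71 (95% interval 0.054 to 1.36) did not pass over all genes (limma adjusted p = 0.120). The ratio of the Vash1 means was 2.65, at levels near 1 TPM. Its log2 difference was 1.53 with a pseudocount of 0.1 in place of 1 (limma adjusted p = 0.159), 0.41 with length and GC content corrected (0.332) and 0.21 after quantile normalization (0.560). Vash1 reached the filter of 1 TPM only through its ZT20 values. Svbp, the small partner protein that both vasohibins need, was at 32.5 ± 3.31 TPM (SD, n = 4) for ZT20 against 35.1 ± 7.40 TPM (SD, n = 3) for ZT8, with a difference of −0.093 in log2 (limma adjusted p = 0.731). The log2 ratio of Ttl to the sum of the vasohibins was 3.06 to 3.49 at ZT20 and 3.14 to 3.80 at ZT8, with overlapping ranges.

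Of the acetylation pair, Hdac6 (ENSMUSG00000031161), the cytoplasmic deacetylase, read 15.4, 14.5, 17.6 and 19.2 TPM across the ZT20 replicates in number order. The ZT8 replicates read 11.3, 8.18 and 10.5 TPM, and the groups did not overlap. The means were 16.7 ± 2.10 TPM (SD, n = 4) for ZT20 against 10.02 ± 1.64 TPM (SD, n = 3) for ZT8, with a log2 difference of 0.69 and a 95% interval of 0.27 to 1.10 (limma adjusted p = 0.0366). This call was lost in 14 of 20 alternatives. Median-ratio scaling gave 0.47 (limma adjusted p = 0.0748), quantile normalization 0.38 (0.139), and the correction for length and GC content 0.17 (0.472). Leaving out any one of the ZT20 samples or ZT8 replicate 3 also ended the call, with limma adjusted p-values of 0.0517 to 0.116, while the difference stayed at 0.62 to 0.74. Hdac6 is X-linked, and the 2 highest values were in ZT20 replicates 3 and 4, the libraries with Xist and without Ddx3y. Without them the difference was 0.55 (limma adjusted p = 0.355), and the part of sex in it was not tested.

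Atat1 (ENSMUSG00000024426), the acetyltransferase that Hdac6 opposes, read 15.1, 17.6, 15.1 and 16.9 TPM across the ZT20 replicates in number order, and 15.6, 4.34 and 15.8 TPM across the ZT8 replicates. ZT8 replicates 1 and 3 lay within the ZT20 range, and only ZT8 replicate 2 was low. The log2 difference was 0.59 with a 95% interval of −0.28 to 1.45 (limma adjusted p = 0.303). Without ZT8 replicate 2 it was 0.036. The gene Gm16279 overlaps Atat1 on the opposite strand, and its share of the reads was not tested. The log2 ratio of Atat1 to Hdac6 was −0.23 to 0.28 at ZT20 and −0.92 to 0.59 at ZT8. Sirt2, a deacetylase that also acts on tubulin, was at 194 ± 8.82 TPM (SD, n = 4) for ZT20 against 162 ± 32.0 TPM (SD, n = 3) for ZT8, with a difference of 0.28 in log2 (limma adjusted p = 0.219).

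Of the 9 members other than Agtpbp1, 8 were tested and 2, Ttll7 and Hdac6, passed a limma adjusted p of 0.05, both higher at ZT20. Over all 14800 genes 16.4% passed, 12.8% higher and 3.61% lower at ZT20. Samples separated fully by group in 3 of the 8 (Ttll7, Hdac6 and Vash1) and in 33.2% of all genes. Vash1 was among the 8 only because its ZT20 values lifted its mean over the filter. The median log2 difference of the 8 was 0.52, and that of all tested genes 0.23. Since the group was built around a gene chosen by this contrast, nothing is read from these counts. Of all called genes 78.1% were higher at ZT20 as deposited, 49.3% under median-ratio scaling, which moved the median of all genes to 0.033, 55.7% under quantile normalization (median 0.0046) and 40.5% with length and GC content corrected (median −0.0083).

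**Figure D3:**
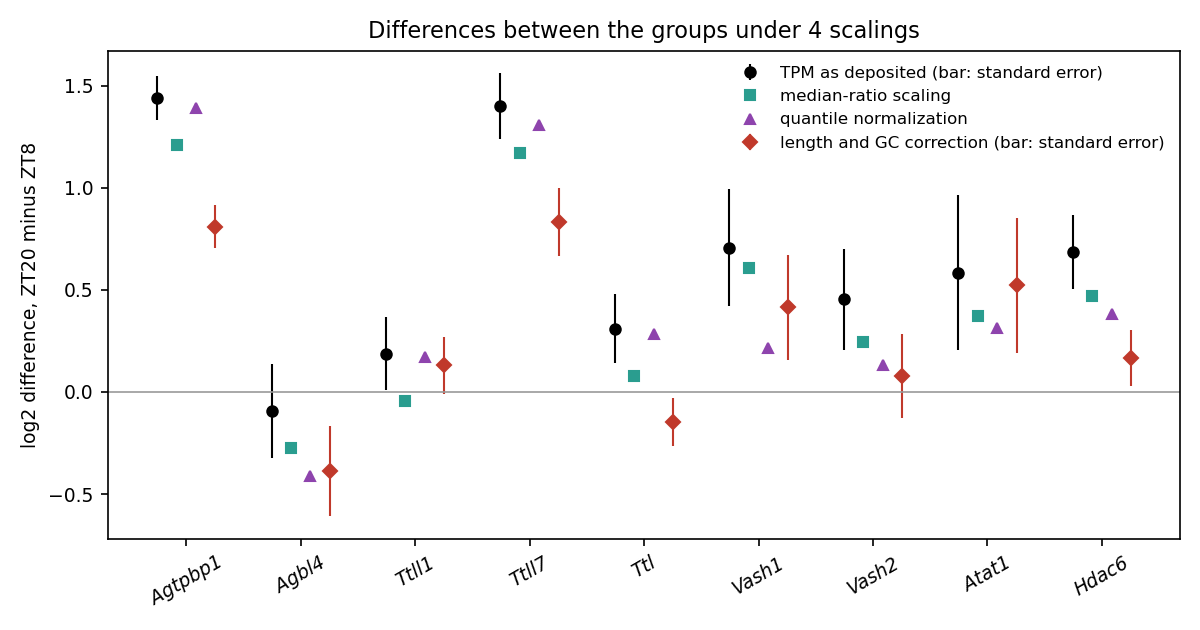
Log2 difference of each tested member, ZT20 minus ZT8, with TPM as deposited and under 3 other scalings; bars on the deposited and the length-corrected values are standard errors. Agtpbp1 and Ttll7 stay above 0.8 under all 4 scalings, whereas Hdac6 falls from 0.69 to 0.17 and Ttl and Ttll1 cross 0 in 1 of them each.

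Transcript length moved with these differences. With the tested genes in 10 groups by the length of their longest GENCODE M21 transcript, the group of 6491 nt and longer, which holds Agtpbp1 (8174 nt) and Ttll7 (7394 nt), had a median log2 difference of 0.69. In that group 4.95% of the genes had a larger difference than Agtpbp1 and 5.90% a larger one than Ttll7. By limma 36.9% of that group passed, against 16.4% of all tested genes. Hdac6 (5037 nt) lay closer to its own length group, whose median was 0.56, and 40.6% of the genes there had a larger difference. By limma 28.3% of the genes in the group of Hdac6 passed. With the dependence on length and GC content taken out of each sample, the difference was 0.81 (standard error 0.11) for Agtpbp1 and 0.83 (standard error 0.17, limma adjusted p = 0.0241) for Ttll7. Both values were smaller than those as deposited, and Ttll7 passed in both fits. What made length and difference move together was not tested.

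**Figure D4:**
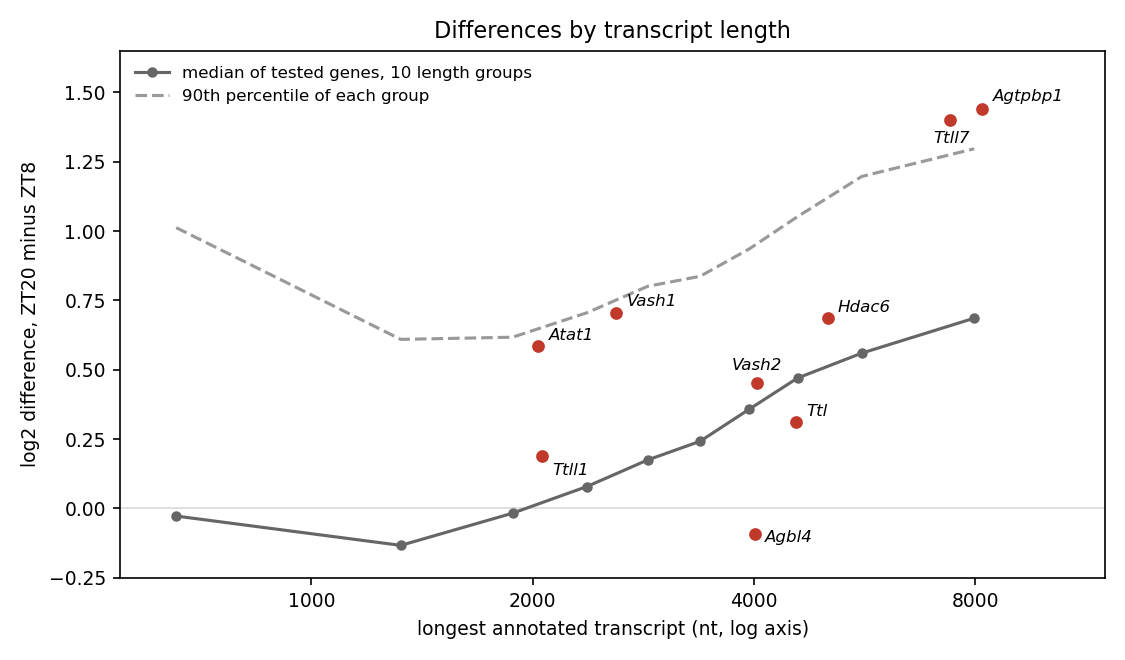
Log2 difference, ZT20 minus ZT8, against the longest annotated transcript of each tested member (red), with the median (solid) and 90th percentile (dashed) of all tested genes in 10 length groups. Agtpbp1 and Ttll7 lie above the 90th percentile of the longest group (1.30), and Vash1 lies at that of its own group (0.71). Hdac6 and Vash2 lie above the medians of their groups (0.56 and 0.36), as do Atat1 and Ttll1, which share a group (median −0.017). Atat1 is just under the 90th percentile of that group (0.62). Ttl and Agbl4 lie below the medians of theirs (0.47 and 0.36).

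Other genes of tubulin modification were taken as a list by their function: the remaining carboxypeptidases and TTLL ligases, Svbp, the Ttll1 complex, Sirt2 and the Matcap proteases. Of 23 listed, 20 were in the table under those symbols and 14 were tested. By limma 1 passed, lower at ZT20, and 0 passed higher, where 3.61% of all tested genes passed lower and 12.8% higher. A further 2 had an unadjusted p under 0.05 without passing. The median log2 difference was 0.27, beside 0.23 over all tested genes. Matcap1, Matcap2 and Cstpp1 were not matched and are not analysed here.

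The gene that passed was Agbl3 (ENSMUSG00000038836), a further carboxypeptidase of the Agtpbp1 family. It read 6.78, 5.74, 6.27 and 6.42 TPM across the ZT20 replicates in number order, and 8.77, 11.5 and 13.0 TPM across the ZT8 replicates. The groups did not overlap, and the direction was the opposite of that of Agtpbp1. The log2 difference was −0.71 (standard error 0.19, limma adjusted p = 0.0387). It was further from 0 after the correction for length and GC content (−1.11), quantile normalization (−1.04) and median-ratio scaling (−0.92). The direction held in 20 of 20 alternatives and the call was lost in 11. Fits that only left out samples could not turn the direction, because the groups did not overlap. The difference was −0.71 without a filter (limma adjusted p = 0.0726) and −0.86 with the marker score as a covariate (0.0913). Without any one of the ZT20 samples or ZT8 replicate 3 it was −0.74 to −0.60 (limma adjusted p = 0.0799 to 0.113), and without ZT20 replicates 3 and 4 it was −0.72 (limma adjusted p = 0.296).

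Ttll5, a ligase that adds glutamate to alpha-tubulin, was at 42.4 ± 3.12 TPM (SD, n = 4) for ZT20 against 29.8 ± 4.83 TPM (SD, n = 3) for ZT8. Its groups did not overlap, and its log2 difference of 0.50 had a limma adjusted p of 0.0523. Ttll4, a ligase that starts glutamate chains, was at 0.734 to 2.89 TPM at ZT20 and 0.156 to 0.450 TPM at ZT8, without overlap (limma adjusted p = 0.0889), and like Vash1 it reached the filter only through its ZT20 values. Ttll2 was listed at 0 in all 7 samples, and Ttll6, Ttll8, Ttll10, Agbl1 and Agbl2 had means under 1 TPM and were not tested.

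The alpha-tubulin genes and the enzymes that sever microtubules were counted in the same fit. Of 5 alpha-tubulin genes 0 passed by limma, and 0 had an unadjusted p under 0.05. Over all 14800 genes 16.4% passed, and 5122 had an unadjusted p under 0.05. The median log2 difference of the alpha-tubulin genes was 0.078. Tuba1a, the most abundant, was at 5445 to 5895 TPM at ZT20 and 5949 to 8254 TPM at ZT8, without overlap and with a log2 difference of −0.27 (limma adjusted p = 0.183). Tuba4a, whose protein is encoded without the terminal tyrosine, was at 145 to 214 TPM at ZT20 and 122 to 215 TPM at ZT8. Of 7 tested severing enzymes, which cut microtubules and include spastin and the katanins, 0 passed by limma and 3 had an unadjusted p under 0.05, with a median log2 difference of 0.096. The smallest limma adjusted p among them was that of Katnal1 (0.0546), at 40.6 ± 4.62 TPM (SD, n = 4) for ZT20 against 28.6 ± 3.17 TPM (SD, n = 3) for ZT8. Spast, which is stimulated by glutamate chains on tubulin, was at 5.55 to 6.56 TPM at ZT20 and 2.94 to 5.05 TPM at ZT8 (limma adjusted p = 0.0845).

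Some markers of cell types differed between the groups, and their part in the members' differences was not tested. Their counts stand beside the 12.8% of all tested genes that passed higher and the 3.61% that passed lower. In bulk samples, fewer cells of a type and less RNA per cell cannot be told apart. Of 10 neuronal markers 2 passed higher at ZT20 by limma (Elavl4 and Syt1) and 0 lower, and their summed level was 14758 to 18727 TPM at ZT20 and 11671 to 17801 TPM at ZT8, with overlap. Of 6 satellite glia markers 2 passed lower (Apoe and Fabp7), with sums of 7050 to 8554 TPM at ZT20 and 11868 to 14571 TPM at ZT8. Apoe alone gave 6261 to 7615 TPM of the ZT20 sums and 10623 to 13557 TPM of the ZT8 sums, and Cdh19 and Kcnj10 had positive log2 differences (0.38 and 0.21) that did not pass. Of 8 macrophage markers 1 passed lower (C1qa), with sums of 115 to 157 TPM and 160.5 to 370.1 TPM. Without C1qa and C1qb, left out after their values were seen, the macrophage sums overlapped (51.3 to 70.3 TPM and 44.9 to 117 TPM), and Ptprc and Adgre1 had positive log2 differences (0.62 and 0.19) that did not pass. Of 6 Schwann cell markers 0 passed (sums 1121 to 1254 TPM and 903 to 1296 TPM, with overlap). Of 4 tested plasma cell markers 1 passed lower (Mzb1), with sums of 267 to 485 TPM at ZT20 and 496 to 933 TPM at ZT8 that did not overlap. Jchain, an immunoglobulin joining chain, read 10.2, 176, 157 and 4.18 TPM over the ZT20 libraries and 560.4, 195 and 317 TPM over those of ZT8 (log2 difference −3.19, limma adjusted p = 0.102). The gap between the sums lay in Jchain and Mzb1, as Sdc1 and Xbp1 had log2 differences of −0.0047 and 0.044 that did not pass. Tnfrsf17 was not tested, and read 0 TPM in every ZT8 sample and up to 0.836 TPM at ZT20. No defining marker of these types was at 0 in every sample. With a score of neuronal minus other markers as a covariate, the log2 difference of Ttll7 was 1.203 (limma adjusted p = 0.0197) and that of Hdac6 was 0.62 (limma adjusted p = 0.180), while the calls over all genes went from 2433 to 669.

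The 5 genes outside the group whose values followed Agtpbp1 most closely over the 7 samples were found by the root-mean-square distance of log2(TPM + 1), each gene centred on its own mean. They were Acsl4 (distance 0.085), Ubr4 (0.094), Etv6 (0.10), Fam120a (0.10) and Mib1 (0.11). With 7 samples in 2 groups, a small distance requires a similar difference between the groups, the contrast by which Agtpbp1 was chosen. The log2 differences of these 5 genes were 1.27 to 1.55, so their closeness is only a description. Acsl4, which activates long-chain fatty acids, was at 36.7 to 42.9 TPM at ZT20 and 12.5 to 16.2 TPM at ZT8. Ubr4, a ubiquitin ligase, was at 61.3 to 81.2 TPM and 26.6 to 28.7 TPM. All 5 had long transcripts, of 5105 to 15928 nt. The longest length groups had the largest median log2 differences, 0.56 at 5000 to 6488 nt and 0.69 at 6491 nt and longer. Among the members Ttll7 was the nearest to Agtpbp1, at a distance of 0.20, and 126 genes were nearer. Hdac6 and Vash1 were at 0.42 each, and the other tested members at 0.57 to 0.79.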

How the data were processed

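RNA abundance in 7 samples was taken from 1 table of TPM values deposited by the authors, with 1 column per sample. Per the submitters' processing notes, FastQC 0.11.9, Trim Galore 0.6.6, Salmon 1.6.0, DESeq2 1.34.0 and the build GRCm39 were used; their roles, the annotation and any scaling are not given in the sources used here. Depth and counting error are unknown.

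Values were analysed as log2(TPM + 1), which understates differences of low genes. Genes averaging 1 TPM or more, 14800 in all, were fitted over all 7 samples with limma 3.58.1 (trended eBayes, R 4.3.3), two-sided, with Benjamini-Hochberg adjustment over all of them. The fit was checked on simulated data. The members and gene lists were chosen with earlier results of these data known. All members are named; genes of the other lists are named where they passed or where they complete a complex, and the others (Ttll4, Ttll5, Sirt2, the untested ligases and carboxypeptidases, Tuba1a, Tuba4a, Katnal1 and Spast) were picked after their values were seen. Transcript lengths and GC content came from GENCODE M21 (build GRCm38), matched by identifier for 99.6% of tested genes and corrected by loess with span 0.3. Marker lists for fibroblasts and endothelial cells were also read, and 0 of 4 and 0 of 1 tested markers passed. Figures were drawn with matplotlib 3.10.9.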

Additional observations from a re-analysis of the deposited data

Results flagged for a closer look

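Among 42 results examined over the 4 ZT20 samples, 2 had a single sample far from the rest, where chance gives about 2.1. Ttll7 in ZT20 replicate 2 (103.6 TPM) lay below the remaining ZT20 replicates (118.8 to 120.3 TPM), and this gap took 0.909 of the range. It was still above every ZT8 sample. Ttll12, a protein of the TTLL family, read 7.988 TPM in ZT20 replicate 2 against 11.51 to 12.22 TPM elsewhere in ZT20, where the gap took 0.832 of the range.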

How the results depend on the processing

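Agtpbp1 kept its direction in 20 of 20 alternatives (0.81 to 1.48), as did Ttll7 (0.83 to 1.49), Hdac6 (0.13 to 0.77), Vash1 (0.21 to 1.53, in 19), Vash2 (0.0045 to 0.71) and Atat1 (0.036 to 0.86). Many of these alternatives could not turn a sign. Dropping the filter or the intensity trend left each difference unchanged. Where the groups did not overlap (Agtpbp1, Ttll7, Hdac6 and Vash1), leaving out samples could not turn it either, and Agtpbp1 was chosen by this contrast. Ttll7 lost its call in 2, those that left out ZT20 libraries by their sex-linked transcripts, and Hdac6 in 14. Signs turned for Ttl under the length and GC correction (−0.15, and −0.21 with the replicate block). They turned for Ttll1 under median-ratio scaling (−0.043), the marker covariate (−0.043) and without ZT8 replicate 2 (−0.032, up to 0.36 over fits without 1 sample). For Agbl4 they turned without ZT20 replicate 2 (0.031, down to −0.16 over fits without 1 sample) and with replicate 1 as the lone ZT20 sample (0.013).

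Of the other members, 1 of 9 passed without a filter, and 1 of 8 under median-ratio scaling, quantile normalization, the length and GC correction, the marker covariate and the replicate block with or without that correction, and 0 in both fits that dropped ZT20 libraries by sex-linked transcripts. Over fits without 1 sample it was 1 to 2. Of the other listed enzymes 0 passed without a filter, with the marker covariate, in either block fit and in both sex-linked fits, 2 with a mean of at least 5 TPM, 3 at an adjusted p under 0.10, and 0 to 2 without 1 sample. Of all 14800 tested genes, 2433 passed as deposited, 2288 under median-ratio scaling, 1837 after quantile normalization and 669 with the marker covariate. Passing genes were 1178 of 31897 without a filter and 2280 of 10268 with a mean of at least 5 TPM. They were 1304 of 14745 after the length and GC correction, 3899 with array weights and 4079 at an adjusted p under 0.10. With ZT20 replicates 3 and 4 left out 0 passed. Without 1 sample 624 to 3055 passed, with 1125, 624 and 819 without ZT20 replicates 1, 3 and 4. ZT20 replicate 4 has no ZT8 sample of the same number, so the replicate block gives the same differences as leaving it out. The block gave 1174, beside 819 without ZT20 replicate 4 and without a block, and 520 with the correction. In the 2 block fits Agbl3 had differences of −0.72 and −1.10 (limma adjusted p = 0.1298 and 0.0815). The labels do not say whether the replicate numbers pair samples. Same-numbered samples had correlations of −0.014, 0.15 and 0.083, and samples of different numbers −0.17 to 0.15. The cause of these changes was not tested.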
